A study of Mus musculus with 7 samples.

Results

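G2, mitosis and spindle genes are described here in muscle satellite cells, which are stem cells that repair muscle fibres, of young and geriatric mice. The 38 genes are a list of names, put together with earlier results of these data known: every probe of the array that was not a control and whose gene name was one of the 38 was read. That gave 52 of the 55681 probes and 38 of the 36406 names on the array, so each gene had at least 1 probe. A spot counted as detected where the scanner software marked it as well above background. Of the 38 genes, 28 had a probe detected on 3 or more of the 7 arrays and could be tested, and 22 of those 28 were read by a probe detected on all 7.

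As background, cells that leave G2 and divide activate the kinase CDK1 through the B-type cyclins, and the kinases PLK1 and Aurora A help to build a spindle that pulls the duplicated chromosomes apart. The spindle checkpoint holds the anaphase-promoting complex back until every kinetochore is attached, after which CDC20 and UBE2C let that complex mark securin and the cyclins for destruction. Many of these genes are transcribed mainly late in the cell cycle, so their RNAs are commonly read as signs of dividing cells, and most satellite cells of adult resting muscle are out of cycle.

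The samples came from male C57BL/6 mice, and all cells were sorted from skeletal muscle in homeostasis for integrin α7 and CD34 and against CD31, CD45, CD11b and Sca1. Mice were 2, 2 and 3 months old for the 3 young arrays, and 28, 28, 29 and 30 months old for the 4 geriatric arrays. Geriatric arrays 1 and 2 carried the same sample name, differed by at most 2 combined measurement errors at 95.4% of probes (59.9% to 66.9% in the other 20 pairs of arrays) and were counted as 1 sample, which left 3 young against 3 geriatric samples. Samples are titled as biological replicates without saying whether 1 mouse or several gave each, and a p-value here reflects the spread among these 6 samples. The RNA was amplified from very small cell numbers and hybridised on 1-colour Agilent arrays, whose number limits the precision.

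Values below are levels on the log2 scale, as the processed signal of a probe relative to the 75th percentile of its array. A level of 0 is therefore the 75th percentile, and levels of different probes cannot be ranked against each other. Of 55681 probes, 38044 to 41289 per array were detected, and the 75th percentile lay between 1330 and 1609 intensity units. All 10 satellite cell markers looked up (Pax7, Myf5, Itga7 and others) were detected on all 7 arrays, with a median difference between ages of 0.06. Geriatric minus young, the differences ran from -0.44 for Itga7, whose ages did not overlap, to 0.33 for Sdc4. Of the antigens sorted against, Itgam (CD11b) and Ptprc (CD45) were also detected on all 7 arrays, while Pecam1 (CD31) was so on 3 young and 2 geriatric arrays and Ly6a (Sca1) on 2 and 2.

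No mitotic gene passed the test between ages (limma with Benjamini-Hochberg adjustment over all 27395 tested features, adjusted p at or under 0.05). The background was small, since 7 features (0.0256%) passed it in the whole table, 4 of them lower in geriatric cells (0.0146%), and the smallest adjusted p of a member was 0.353, for Smc4. At an unadjusted p under 0.05, 2 members were lower in geriatric cells (Smc4 and Cenpa) against 2.86% of all features, and 1 was higher (Plk1) against 4.39%, or 3 in all against 7.25%. Of the 28 tested genes, 20 had the lower mean in geriatric cells (71.4%, against 50.6% of all features), and their median difference, geriatric minus young, was -0.40 against 0.00 (-0.0043) over all features. The samples of the ages did not overlap for 3 genes that were lower (Mki67, Cenpa and Smc4, against 5.75% of all features) and 2 that were higher (Plk1 and Pttg1, against 7.09%). A 2-fold or greater difference was seen downward in 6 genes (Mki67, Ccnb1, Cenpa, Birc5, Nusap1 and Smc4, against 3.58%) and upward in Plk1 alone (5.44%). In bulk samples, fewer cells of a type and less RNA per cell cannot be told apart.

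The median depended on geriatric sample 4, on the background correction and on a number in the array names. Without geriatric sample 4 it was -0.15, and with normexp, which keeps dim signals closer together, it was -0.20. The last part of each array name holds a first number, called the position number here, that was 1 on every young array and on geriatric array 1, and 2 on the other geriatric arrays. Among the arrays with number 1 the median was -0.07, with 16 of 28 genes lower and only 1 geriatric array. Number 2 held only geriatric arrays, so a fit with the number as a block gives the same median by design. It compares ages on the same arrays and is not a separate reading. Compared with the main fit, 8 genes changed direction (Birc5, Bub1b, Bub3, Cdc20, Cdk1, Cenpe, Cks2 and Nusap1).

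**Figure D1:**
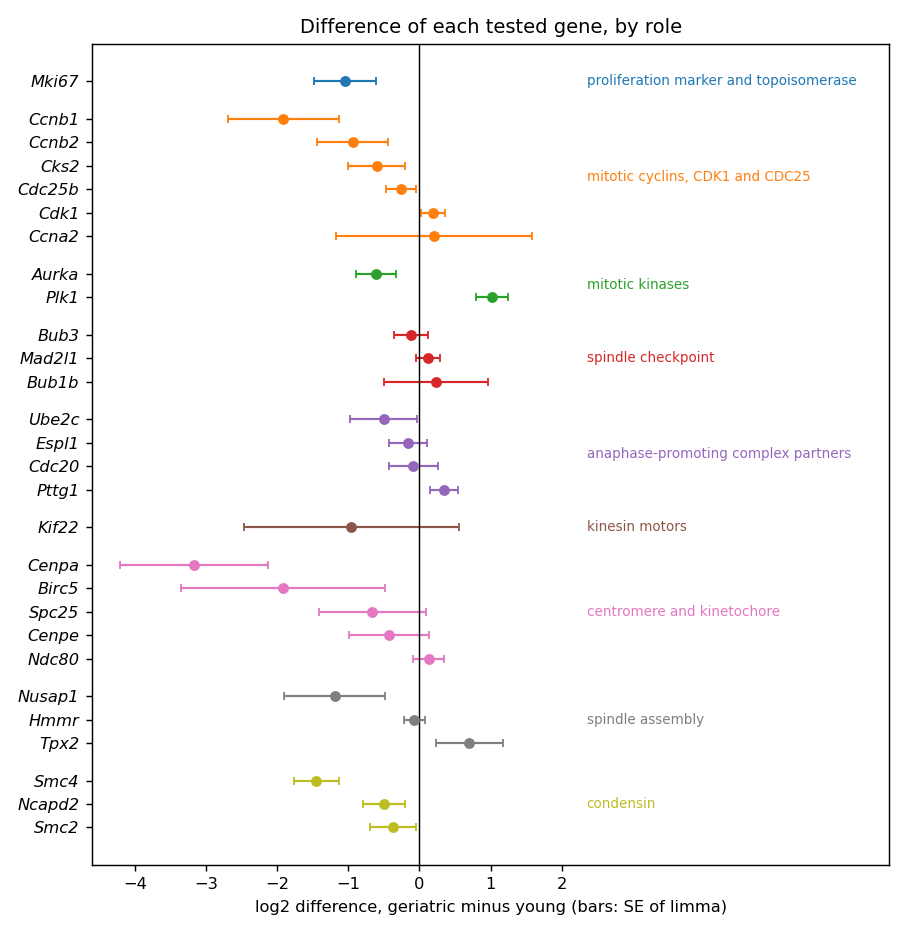
Difference of each of the 28 tested genes (log2, geriatric minus young), grouped by role, with the standard error of limma as bars (3 young and 3 geriatric samples). The points to the left of 0 are 20, Cenpa lies farthest left at -3.17 and Plk1 farthest right at 1.02.

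Mki67 encodes Ki-67, the surface coat of mitotic chromosomes that is used to mark dividing cells. Its levels on the brighter probe were -2.03, -1.67 and -0.60 in young samples 1 to 3 and -2.22, -2.25 and -2.98 in the geriatric pair and geriatric samples 3 and 4. Every geriatric value lay below every young value, and young sample 3 stood highest. The difference was -1.05 (SE 0.43, limma adjusted p = 0.692), and it was -0.63 without young sample 3. Top2a, the topoisomerase that untangles sister chromatids, was detected only on young array 3, where its intensity was 61.2, and lay between 6.6 and 27.8 on the other 6 arrays.

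Among the mitotic cyclins, CDK1 and its activators, 4 of 6 tested genes were lower, with a median of -0.43 and none past the test. Ccnb1 encodes cyclin B1, the partner that turns CDK1 into the mitotic kinase. Its levels were -4.14, -3.60 and -3.14 in young samples and -6.06, -3.82 and -6.75 in geriatric samples. The ages overlapped because geriatric sample 3 lay within the young range. The probe was detected on all 3 young arrays and on 1 of the 4 geriatric arrays, and the difference of -1.91 (SE 0.78, limma adjusted p = 0.687) was -0.72 with normexp. It lies at chr13:101553449-101553508 on the minus strand of mm9, and its 60 bases are shown because they report the largest difference among the cyclins.

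Ccnb1 probe: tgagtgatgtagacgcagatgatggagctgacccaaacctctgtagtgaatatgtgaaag

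Ccnb2 encodes cyclin B2. Its levels were -3.74, -3.45 and -1.99 in young samples and -4.36, -3.72 and -3.91 in geriatric samples, a difference of -0.94 (SE 0.50, limma adjusted p = 0.760) that was -0.40 without young sample 3. Young sample 3 was the high value here too. Cks2, a small subunit that binds CDK1, differed by -0.60 and Cdc25b, a phosphatase that activates CDK1, by -0.25, both with overlap between ages. Ccna2 encodes cyclin A2, which acts from S phase to early mitosis. Its levels were -4.75, -8.07 and -2.85 in young samples and -4.01, -4.82 and -6.22 in geriatric samples, so the young samples alone spanned more than the geriatric ones. The difference was 0.21 (SE 1.38, limma adjusted p = 0.986), and it was -1.21 without young sample 2, whose array did not detect the probe.

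Cdk1, the mitotic kinase itself, was read first on its brightest probe. The young samples lay at -3.38, -3.47 and -3.11 and the geriatric samples at -3.17, -3.19 and -3.03. The ranges overlapped, and the difference was 0.19 (SE 0.17, limma adjusted p = 0.877). Other probes of the gene gave the opposite sign and are described further on.

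The tested mitotic kinases differed in opposite directions. Plk1, polo-like kinase 1, works from G2 to cytokinesis. Its levels were -3.15, -3.71 and -3.39 in young samples and -2.12, -2.58 and -2.50 in geriatric samples. Every geriatric value lay above every young value, and its probe was detected on all 7 arrays. The difference of 1.02 (SE 0.23) had a limma adjusted p of 0.362, and it lay between 0.67 and 1.27 over all alternatives. Aurka, the centrosomal Aurora A kinase, was at -4.49, -3.76 and -3.54 in young samples and at -4.70, -4.42 and -4.52 in geriatric samples. Young sample 1 lay among the geriatric values, and the difference was -0.61 (SE 0.28, limma adjusted p = 0.729). Ttk, the checkpoint kinase MPS1, was detected only on young array 3, at an intensity of 144 against 6.2 to 11.5 on the other arrays.

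Of the 3 tested spindle checkpoint genes 1 was lower, and the median difference was 0.12. Mad2l1 (MAD2), which restrains CDC20, had levels of 0.55, 0.37 and 0.36 in young samples and 0.65, 0.36 and 0.62 in geriatric samples, with a difference of 0.12 (SE 0.17, limma adjusted p = 0.922). Bub3, which brings BUB1 and BUBR1 to kinetochores, was at 1.62, 2.04 and 1.82 in young samples and at 2.11, 1.56 and 1.47 in geriatric samples, a difference of -0.11 (SE 0.24, limma adjusted p = 0.952). Both genes had overlapping ages and a spread under 1 log2 unit. Bub1b, which encodes BUBR1, spread from -4.41 to -1.81 over the 6 samples, and its difference was 0.23 (SE 0.73, limma adjusted p = 0.971). Bub1 was detected only on young array 3.

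The partners of the anaphase-promoting complex were lower in 3 of 4 genes, with a median of -0.12. Pttg1 encodes securin, which keeps separase inactive until anaphase. Its levels were 2.25, 2.61 and 2.08 in young samples and 2.70, 2.63 and 2.63 in geriatric samples. The geriatric values lay above the young ones by a margin smaller than the spread of the young samples, and the difference was 0.34 (SE 0.19, limma adjusted p = 0.775). Ube2c, the ubiquitin-conjugating enzyme of the complex, was at -1.14, -1.50 and -1.42 in young samples and at -1.78, -0.97 and -2.81 in geriatric samples. Geriatric sample 3 was the highest of all 6 and geriatric sample 4 the lowest, and the difference of -0.50 (SE 0.47, limma adjusted p = 0.881) became -0.02 without geriatric sample 4. Cdc20, the activator of the complex, differed by -0.09 and Espl1, which encodes separase, by -0.16.

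Centromere and kinetochore genes held the largest difference of the set, and 4 of the 5 tested were lower, with a median of -0.66. Cenpa encodes the histone H3 variant that marks centromeres. Its levels were -1.89, -1.62 and -1.88 in young samples and -7.43, -3.47 and -3.99 in geriatric samples. The young samples had an SD of 0.15 (n = 3) and the geriatric samples one of 2.15 (n = 3), and the geriatric pair was not detected on either of its arrays. All 3 young and 2 of 4 geriatric arrays detected the probe, and the ages did not overlap. The difference was -3.17 (SE 1.04, limma adjusted p = 0.587), and it was -1.93 without the geriatric pair and -1.89 with normexp. The only probe of the gene is shown because this value rests on it. It lies between chr5:30974916-30975386 on the plus strand of mm9, a stretch longer than its 60 bases.

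Cenpa probe: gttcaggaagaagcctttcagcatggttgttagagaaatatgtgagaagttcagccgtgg

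Birc5, survivin of the chromosomal passenger complex, was at -3.42, -3.64 and -0.96 in young samples and at -2.07, -4.49 and -7.23 in geriatric samples. Young sample 3 was the highest and geriatric sample 4 the lowest, and the difference of -1.92 (SE 1.43, limma adjusted p = 0.839) was -0.60 without geriatric sample 4 and turned to 0.67 with the position number of the arrays as a block. Among the outer kinetochore genes, Spc25 differed by -0.66 and Ndc80, its partner in the NDC80 complex, by 0.13. Ndc80 was the gene of this group with the largest difference the other way, at -3.05, -3.62 and -3.38 in young samples and -3.22, -3.43 and -3.00 in geriatric samples (SE 0.22, limma adjusted p = 0.934). Cenpe, a kinetochore motor, differed by -0.42 with overlap, and by 0.59 with the position number as a block.

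The kinesin motors were mostly near background. Kif22, which pushes chromosome arms, was the only one tested, with levels of -2.91, -2.78 and -4.31 in young samples and -7.50, -1.46 and -3.92 in geriatric samples. The geriatric samples were both above and below the young range, and the difference was -0.96 (SE 1.51, limma adjusted p = 0.929). Kif11, the Eg5 motor that separates spindle poles, was detected on young arrays 1 and 3 (intensities of 113 and 153) and on no geriatric array (5.1 to 9.9). From normalized means, with each geriatric array set no lower than its dimmest detected probe, it was at least 1.53-fold lower in geriatric cells; young array 2, at 5.6, was as low as the geriatric arrays. One Kif2c probe went the other way and was at least 2.42-fold higher in geriatric cells, but its intensity was 789 on geriatric array 2 and 13.4 on geriatric array 1, which share a sample name.

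Of the spindle assembly genes, Nusap1, which bundles spindle microtubules, was at -2.67, -2.63 and -3.24 in young samples and at -2.64, -5.46 and -4.02 in geriatric samples. The geriatric pair lay within the young range and the other geriatric samples below it, with a difference of -1.19 (SE 0.71, limma adjusted p = 0.788) that was -0.49 without geriatric sample 3 and 0.22 with the position number as a block. Tpx2, which activates Aurora A on the spindle, was at -3.88, -3.82 and -4.92 in young samples and at -2.70, -3.95 and -3.88 in geriatric samples. Only the geriatric pair stood above the young samples, and the difference was 0.70 (SE 0.47, limma adjusted p = 0.816). Hmmr, a hyaluronan-binding protein of the spindle, held between 3.63 and 3.86 in all 6 samples and differed by -0.07 (SE 0.15, limma adjusted p = 0.949).

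All 3 tested condensin genes were lower, with a median of -0.50. Smc4 encodes the ATPase core that condensin I and II share with SMC2. Its levels were -1.08, -0.45 and -0.94 in young samples and -1.72, -2.64 and -2.45 in geriatric samples. The ages did not overlap, the probe was detected on all 7 arrays, and the difference of -1.45 (SE 0.31, limma adjusted p = 0.353) lay between -1.73 and -0.83 over all alternatives. Smc2, its partner, was at -2.65, -2.57 and -1.90 in young samples and at -3.01, -2.22 and -3.00 in geriatric samples, with overlap and a difference of -0.37 (SE 0.32, limma adjusted p = 0.869). Ncapd2, a regulatory subunit of condensin I, differed by -0.50 (SE 0.29, limma adjusted p = 0.788), also with overlap.

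**Figure D2:**
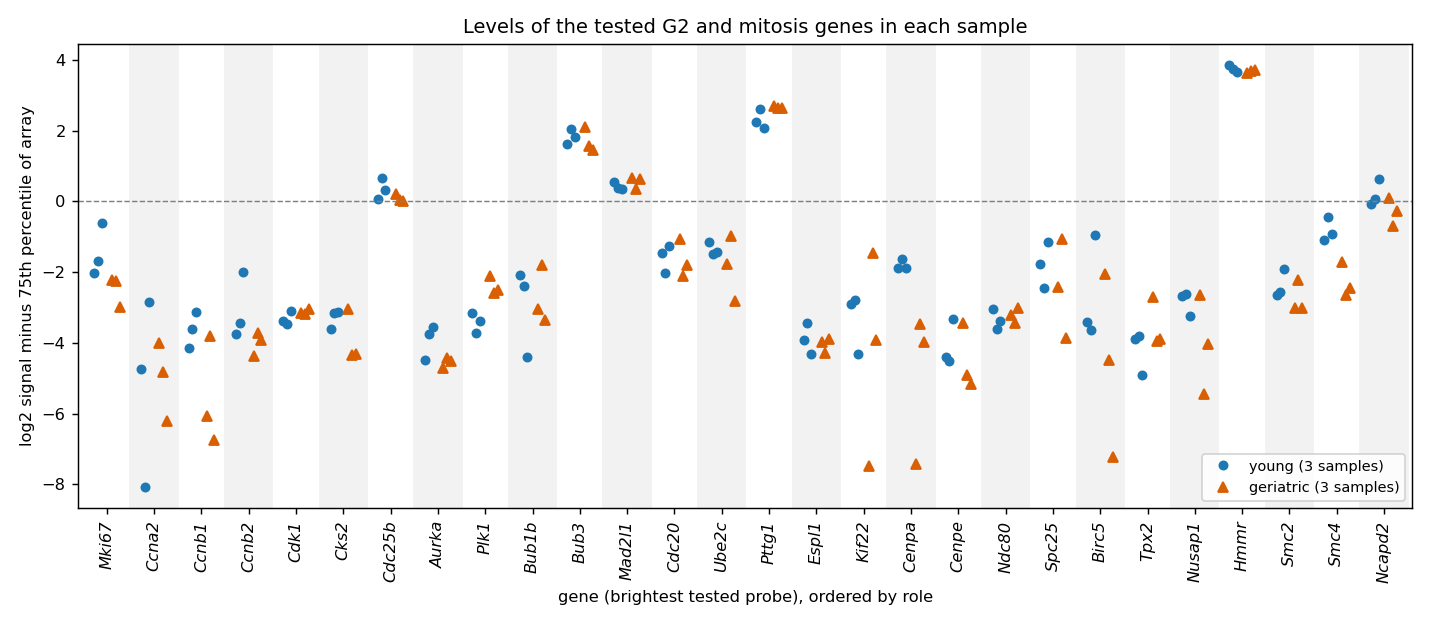
Level of each of the 28 tested genes in the 3 young samples (circles) and the 3 geriatric samples (triangles), as log2 signal minus the array's 75th percentile (dashed line), in order of role. The symbols of Mki67, Cenpa, Smc4, Plk1 and Pttg1 do not overlap between ages, and those of Ccna2, Kif22, Cenpa and Birc5 spread over more than 5 log2 units; heights of different genes cannot be compared.

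Detection was also counted over all 52 probes, those of the 10 untested genes included. Of the 52 probes, 24 (46.2%) were detected on all 7 arrays, against 60.9% of all probes, and 5 on none. A further 7 probes (13.5%) were detected on at least 1 young array and no geriatric array, against 4.46% of all probes. The reverse held for 1 probe, of Kif2c (1.92%, against 4.37%). The 7 read Top2a, Cdk1, Ttk, Bub1, Kif11, Kif4 and Nuf2, and 4 of them (Top2a, Ttk, Bub1 and Kif4, a chromosome-arm kinesin) passed on young array 3 alone, while Nuf2, a partner of NDC80, passed on young array 1 alone. Requiring at least 2 young arrays left 2 probes, of Cdk1 and Kif11 (3.85%, against 1.17% of all probes), and the reverse rule left the 1 of Kif2c (1.92%, against 1.54%).

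Young array 3 read more of the set than any other array. It detected 44 of the 52 probes, young arrays 1 and 2 detected 41 and 34, and geriatric arrays 1 to 4 detected 34, 31, 30 and 33. By gene, 31, 27 and 34 of the 38 were read on young arrays 1 to 3 and 27 on each geriatric array, so young array 2 equalled the geriatric arrays. Across all probes the young arrays read 72.3% to 74.2% and the geriatric arrays 68.3% to 73.6%. Geriatric array 1, at 73.6%, was above young arrays 1 and 2. The part of such array differences in the member counts was not tested. Of the remaining untested genes, Cdc25c and Cenpf, a kinetochore protein, were detected on no array, and Ncapg, a condensin I subunit, on young array 3 and geriatric array 1.

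Probes of the same gene did not always give the same answer. The 7 genes with 2 or more tested probes were Mki67, Ccnb1, Cdk1, Mad2l1, Ube2c, Pttg1 and Birc5. Testing each probe as a feature of its own, an alternative chosen after seeing the data, none of the 38 member probes passed (6 of all 41257 probes did, 0.0145%). At an unadjusted p under 0.05, 6 of the 38 member probes were lower and 1 was higher. Of all 41257 tested probes, 1298 were lower and 1731 higher at that p, or 7.34% in either direction. The lower member probes include the dimmer probes of Cdk1, which share most of their bases. The ages did not overlap for 7 member probes that were lower (5.96% of all probes) and 2 that were higher (6.86%). The median over the 38 probes was -0.55, against -0.0090 over all tested probes.

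Mki67 was lower on both of its probes. On the dimmer one the levels were -2.28, -2.89 and -0.59 in young samples and -5.17, -7.15 and -4.85 in geriatric samples. The ages were farther apart than on the brighter probe, with a fitted difference of -3.81 (SE 0.84, limma adjusted p = 0.368). Geriatric array 3 did not detect the dimmer probe (intensity 11.3), and the other geriatric arrays read 40.0 to 46.9. The size of that difference therefore rests in part on an undetected value. The probes lie on the minus strand of mm9, the dimmer at chr7:142884764-142884823 and the brighter at chr7:142881591-142881650. The dimmer one is shown because it reports the larger difference.

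Mki67 dimmer probe: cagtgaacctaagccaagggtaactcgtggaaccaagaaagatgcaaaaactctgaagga

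The probes of Cdk1 gave fitted differences of both signs. A second probe gave levels of -4.29, -2.62 and -3.49 in young samples and -5.80, -6.93 and -7.54 in geriatric samples, a fitted difference of -3.29 (SE 0.60, limma adjusted p = 0.284), but it was detected on only 1 of the 4 geriatric arrays against all 3 young ones, so the size of that difference is not measured. The remaining probe gave -5.26, -3.53 and -4.55 in young samples and -7.72, -7.27 and -7.63 in geriatric samples (SE 0.46, limma adjusted p = 0.198), and was at least 2.36-fold lower in geriatric cells because no geriatric array detected it. Both stood apart between ages, whereas the brightest probe did not. They are not independent readings, since the former lies at chr10:68801053-68801112 and the latter at chr10:68801072-68801131 on the minus strand of mm9, and they share most of their bases. The brightest lies at chr10:68799513-68799572, and its bases were 45% G or C against 18.3% in each of the others. Which transcripts each probe reads was not analysed here, and the mean of the 3 probes, at -2.07, rests for the most part on geriatric values that were not above background.

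Ube2c had the smallest p of any member probe. Its dimmer probe was at -3.00, -3.23 and -2.82 in young samples and at -5.36, -4.75 and -4.87 in geriatric samples. The ages were apart by more than the spread within either, with a difference of -1.98 (SE 0.24, limma adjusted p = 0.128), while the brighter probe overlapped. Geriatric array 2 did not detect the dimmer probe (intensity 26.5), and the other geriatric arrays read 46.3 to 59.6. Mad2l1 also had a probe with a fitted difference of the other sign, at -1.27 (SE 1.12, limma adjusted p = 0.866), beside probes at 0.12 and 0.06. That probe was detected on all 3 young arrays and on 1 of the 4 geriatric arrays, so its sign rests on undetected values. The probes of Ccnb1, Birc5 and Pttg1 agreed in sign within each gene: -1.91 and -1.12 for Ccnb1, -1.92, -1.19 and -2.87 for Birc5, and 0.34 and 0.44 for Pttg1. The second Ccnb1 probe was detected on 2 young and 2 geriatric arrays. Those of Birc5 after the brightest were detected on 2 young arrays each, and on 3 and 1 geriatric arrays. The signs for Ccnb1 and Birc5 thus rest in part on undetected values.

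**Figure D3:**
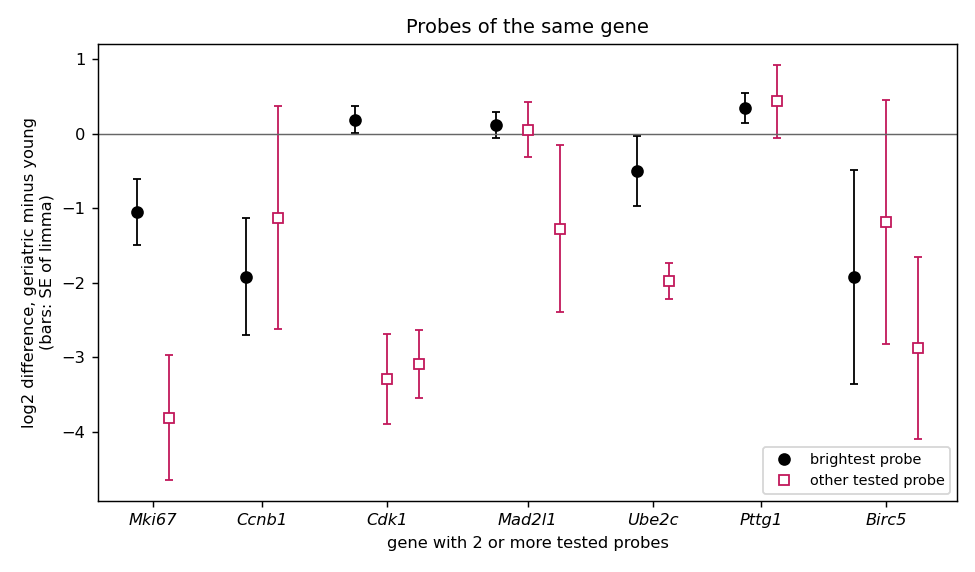
Difference (log2, geriatric minus young) on each tested probe of the 7 genes with more than 1 tested probe; filled circles are the brightest probe, open squares the others, and bars the standard error of limma. The dimmer probes of Mki67, Cdk1 and Ube2c lie lower than the brightest probe of the same gene.

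The samples of one age differed among themselves. As the median over the 28 genes of each sample's deviation from the gene's mean, young samples 1 to 3 were at 0.06, 0.11 and 0.28, and the geriatric pair and geriatric samples 3 and 4 at 0.03, -0.13 and -0.34. The same medians over all features stayed between -0.02 and 0.03. Young sample 3 was the highest of the 6 samples for 9 of the 28 genes (32.1%, against 14.7% of all features), and geriatric sample 4 was the lowest for 8 (28.6%, against 14.5%). By the median, the geriatric pair lay between the young samples and the other geriatric samples. Gene by gene it was mixed, as the highest sample for 7 of the 28 genes (25%, against 18.2% of all features). It was the lowest for 6 (21.4%, against 18.7%).

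**Figure D4:**
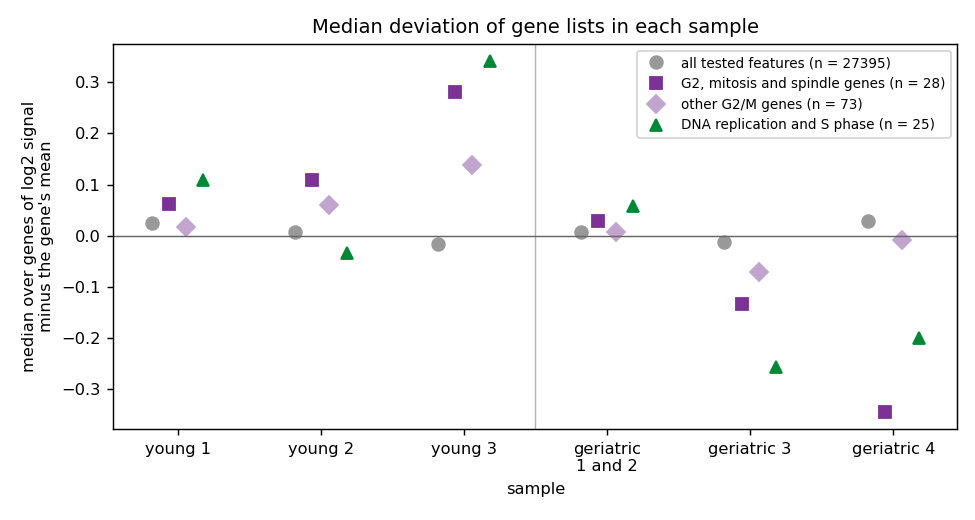
Median over genes of each sample's log2 deviation from the gene's mean, for all tested features, the 28 G2 and mitosis genes, 73 other G2/M genes and 25 genes of DNA replication. Young sample 3 has the highest median of the mitotic genes (0.28) and geriatric sample 4 the lowest (-0.34).

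Markers of other cell types also differed between samples. Of the 10 markers of fibro-adipogenic progenitors, stromal cells of muscle, 9 were tested, 7 were higher in geriatric cells, and the median difference was 0.74. Their summed level, in units of the 75th percentile, was 32.6 to 43.1 in young and 42.7 to 52.0 in geriatric samples. The sum over 9 endothelial markers was 8.11 to 9.73 and 8.85 to 12.8, that over 8 macrophage and monocyte markers 90.6 to 101 and 95.5 to 113, that over 6 lymphocyte markers 1.50 to 1.66 and 1.71 to 1.82, and that over 4 erythroid markers 0.25 to 0.61 and 0.52 to 0.64. Single genes made up much of these sums: Itgam 94.4% to 95.3% of the macrophage sum, Tek 73.0% to 86.4% of the endothelial sum and Col3a1 46.6% to 84.0% of the fibro-adipogenic sum, over the 6 samples. Geriatric sample 4, the lowest for the mitotic genes, had the highest endothelial median deviation (1.55) and the highest macrophage one (0.48). Geriatric sample 3 had the highest of the fibro-adipogenic markers (1.21). By the sum, the endothelial markers were instead highest in the geriatric pair (12.8, against 10.9 in geriatric sample 4). Of the 9 tested endothelial markers, 4 were detected on all 7 arrays. The part of these cells in the mitotic gene differences was not tested.

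Other genes with a part in G2 or mitosis were looked up from a list of 92. It covered the passenger complex, transcription factors, kinesins, kinetochore, condensin, cohesin and cyclin partners. Subunits of the anaphase-promoting complex and other degradation genes were also on it. When in the cell cycle these genes are transcribed was not analysed here. Of 73 tested, 55 were lower in geriatric cells (75.3%, against 50.6% of all features) and 18 were higher. None passed the test, and the median was -0.15. In the condensin and cohesin group 10 of 13 were lower and 3 higher, with a median of -0.11. Among the degradation and cyclin partners 14 of 17 were lower and 3 higher, with a median of -0.15. This list and the set share no gene but share all samples. Genes of cytokinesis were not on it, among them Kif23, a central spindle kinesin that was 1 of the 7 features past the test (limma adjusted p = 0.0282) and was detected on 3 young arrays and no geriatric array. Kif23 passed in 6 of the 18 alternatives that tested it (limma adjusted p from 0.0148 to 0.257), and those in which it did not included every block and leaving out young sample 1 or 2, geriatric sample 3 or 4 or the geriatric pair. At an unadjusted p under 0.05, 3 of the 73 were lower (against 2.86% of all features) and 1 higher (against 4.39%). Of these 4, 3 did not overlap between ages. Over the 73, the ages did not overlap for 5 genes that were lower (5.75% of all features) and 2 that were higher (7.09%). Wee1, the kinase that keeps CDK1 inactive, was higher, at -1.67, -1.30 and -1.60 in young samples and -0.82, -1.02 and -0.79 in geriatric samples (0.64, SE 0.18, limma adjusted p = 0.498). Dsn1, a kinetochore subunit, was lower, at -3.52, -2.27 and -2.82 against -7.11, -5.62 and -4.19 (-2.77, SE 0.77, limma adjusted p = 0.497), and was detected on 3 young arrays and 1 geriatric array. Fam64a was detected on all 3 young arrays and no geriatric array, and was at least 2.04-fold lower in geriatric cells. It did not pass the test either (limma adjusted p = 0.568). Foxm1, a transcription factor of G2 genes, differed by -0.04. Of 25 tested genes of DNA replication and S phase, 15 were lower (60%, against 50.6% of all features), with a median of -0.19 and none past the test. At an unadjusted p under 0.05, 3 of them were lower (Mcm2, Mcm10 and Cdc6, against 2.86% of all features) and none was higher. The ages did not overlap for these 3 (against 5.75%). Their smallest limma adjusted p was 0.175, for Mcm10. Both Mcm10 and Cdc6 were detected on all 3 young arrays and no geriatric array.

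The promoters of the set share sequence features that did not enter its choice. RefSeq promoters on GRCm38.p6, from 250 bases before to 50 after the start, were matched by symbol for 34 of the 38 genes and gave 35 promoters, as Bub3 has 2. They were searched on both strands for TTTGAA, the core of the cell cycle homology region that the DREAM and MuvB complexes bind, and for CCAAT, the box bound by NF-Y. TTTGAA was found in 25 of the 35 (71.4%), against 17.9% of all 32851 promoters and 12.6% of those of all tested features. Its share was 37.7% in the promoters of the other G2/M genes and 12% in those of the DNA replication genes. CCAAT was found in 28 (80%), against 37.4%, and 2 or more copies in 20 (57.1%), against 11.7%. CCAAT was also common in the promoters of the other G2/M genes (58.4%, and 32.5% for 2 or more copies) and of the DNA replication genes (56% and 28%). Both motifs occurred in 23 (65.7%), against 6.95% of all promoters, 26% of the promoters of the other G2/M genes and 8% of those of the DNA replication genes. In 1 promoter, that of Ube2c, a CCAAT overlapped another on the opposite strand. A match of letters is a description and does not show binding.

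The 200 bases before the start are shown for 4 genes described above and for Pttg1, whose 300 bases held neither motif. Capitals mark TTTGAA and CCAAT or, on the other strand, TTCAAA and ATTGG. The Cdk1 stretch is chr10:69352913-69353112 (minus strand), that of Mki67 chr7:135716380-135716579 (minus), that of Top2a chr11:99024190-99024389 (minus), that of Ube2c chr2:164769729-164769928 (plus) and that of Pttg1 chr11:43425982-43426181 (minus).
Cdk1: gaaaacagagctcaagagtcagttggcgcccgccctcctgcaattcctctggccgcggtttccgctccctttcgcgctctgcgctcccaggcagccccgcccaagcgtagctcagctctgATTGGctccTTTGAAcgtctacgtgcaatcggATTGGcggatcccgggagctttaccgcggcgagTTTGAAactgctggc
Mki67: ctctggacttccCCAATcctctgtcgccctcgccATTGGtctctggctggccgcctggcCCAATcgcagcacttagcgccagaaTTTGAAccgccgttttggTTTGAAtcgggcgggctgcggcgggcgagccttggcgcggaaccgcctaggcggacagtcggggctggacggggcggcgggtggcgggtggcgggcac
Top2a: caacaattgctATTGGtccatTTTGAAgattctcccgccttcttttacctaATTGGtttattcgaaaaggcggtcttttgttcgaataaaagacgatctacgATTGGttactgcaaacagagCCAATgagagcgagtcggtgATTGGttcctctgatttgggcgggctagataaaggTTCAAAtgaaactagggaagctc
Ube2c: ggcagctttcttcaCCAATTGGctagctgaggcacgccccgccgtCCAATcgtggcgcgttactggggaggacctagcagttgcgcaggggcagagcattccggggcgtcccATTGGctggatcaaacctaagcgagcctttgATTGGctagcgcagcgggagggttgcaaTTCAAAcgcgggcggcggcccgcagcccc
Pttg1: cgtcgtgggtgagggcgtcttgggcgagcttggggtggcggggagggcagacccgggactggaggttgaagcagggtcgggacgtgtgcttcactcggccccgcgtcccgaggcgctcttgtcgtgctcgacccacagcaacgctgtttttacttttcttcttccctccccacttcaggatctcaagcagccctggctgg

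The stretch of Cdk1 holds 2 TTTGAA and 2 CCAAT, that of Mki67 2 and 3, that of Top2a 2 and 5, and that of Ube2c 1 and 5. Both motifs were found in the promoters of Plk1 and Cenpa, among others. Neither was found in those of Mad2l1, Birc5, Nusap1, Nuf2 and Pttg1. A relation between the motifs and the differences between ages was not tested.

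**Figure D5:**
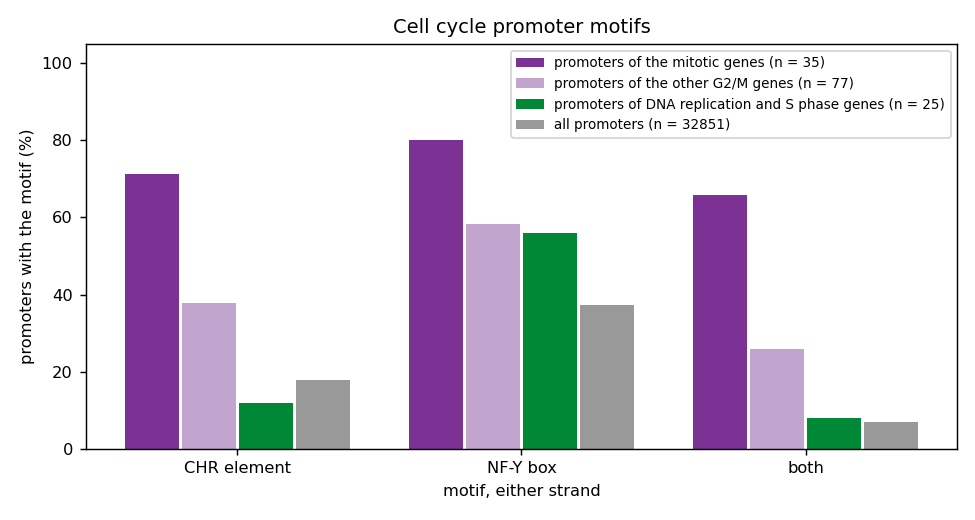
Share of promoters (percent, 300 bases each) with the CHR element, the NF-Y box or both on either strand, for the 35 promoters of the mitotic genes, 77 of other G2/M genes, 25 of DNA replication genes and all 32851. The mitotic genes stand at 71.4%, 80% and 65.7%.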

How the data were processed

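Arrays were read by Agilent Feature Extraction 10.7.3.1 into intensity values per spot, per the file headers. The deposited processed intensity was corrected for background and for trends across the array, with surrogates in place of values too close to background, as the file headers state. The authors' value table held log2 values with a median of 8.24 or 8.25 in each column. Spot by spot, each column followed the log2 mean signal of its own array (r between 0.9996 and 0.9998), so genes were not centred. Their background correction stays unknown, and they served as an alternative only.

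Controls and 124 to 229 outlying spots on each array were dropped, repeated spots of a probe were averaged, and none was saturated. Log2 processed signal, from which the 75th percentile of its array was subtracted, was tested for probes that 3 or more of the 7 arrays marked as well above background, with the brightest tested probe per gene name. The test was limma 3.58.1 (R 4.3.3, 2-sided, Benjamini-Hochberg over 27395 features, 0.05), checked on simulated data, with geriatric arrays 1 and 2 averaged. Probe coordinates are those of the files (mm9), and exon or UTR positions of probes were not analysed here. Named in full were, per role, the member with the smallest p and the one with the largest opposite difference. Mki67, Top2a, Ccnb1, Cdk1, Plk1 and members with probes of differing sign were added. Of the other G2/M genes, those with an unadjusted p under 0.05 and no overlap were named. Members, role groups and lists were chosen with earlier results of these data known. Alternatives were normexp (offset 50) or quantile values, the authors' values, other filters and probe rules, the array pair as 2 samples, the numbers in names or titles as blocks, and each sample left out.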

Additional observations from a re-analysis of the deposited data

How the results depend on the processing

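No mitotic gene passed the threshold under any of the 20 alternatives, of which 1, each probe as a feature, was chosen after seeing the data. The count over all features (7) was 4 with normexp, 4 with the authors' values, 2 with probes well above background on all 7 arrays, 3 on arrays with first position number 1, 64 with geriatric arrays 1 and 2 as 2 samples and 0 with that position number as a block (1633 at an unadjusted p under 0.05). It ranged from 0 to 2 when 1 of the 6 samples was left out and was 8 or 7 when only array 1 or array 2 of the geriatric pair was, with 0 without young sample 1, young sample 2 or geriatric sample 4 (1625, 2152 and 2113 unadjusted), 1 without the geriatric pair and 2 without young sample 3 or geriatric sample 3. Same-numbered samples did not deviate together (r of -0.04, 0.03 and 0.04 across features). With 3 samples per age, these values cannot show whether same-numbered samples were processed together. The replicate block left 0 features by the number in the name (2072 unadjusted; median of the mitotic genes -0.40) and 0 by the number in the title (3563 unadjusted; median -0.18).

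The median of -0.40 was -0.20 with normexp, -0.21 with probes well above background on all 7 arrays, -0.55 over single probes, -0.069 with the position number as a block or on arrays with number 1, and -0.53 to -0.15 with a sample left out. The block and the arrays with number 1 give equal differences by design, since number 2 held only geriatric arrays. Of the 28 genes, 14 kept their direction under every alternative. With the position number as a block or on arrays with number 1, reversed values were Birc5 0.67, Bub1b -0.072, Bub3 0.28, Cdc20 0.43, Cdk1 -0.066, Cenpe 0.59, Cks2 0.18 and Nusap1 0.22. Others were Cdk1 -2.07 and Mad2l1 -0.37 by the mean of probes, Ccna2 -0.064 with normexp and -0.16 with the authors' values, Cdc20 0.062 with the pair as 2 samples, and Bub3 0.10, Cdc20 0.16 and Cenpe 0.15 with the title number as a block. With a sample left out, ranges that crossed 0 were Bub1b -0.50 to 0.67, Bub3 -0.31 to 0.010, Ccna2 -1.21 to 1.39, Cdc20 -0.38 to 0.14, Espl1 -0.37 to 0.058, Kif22 -2.37 to 0.65, Ndc80 -0.0034 to 0.28 and Spc25 -1.36 to 0.047. The cause was not tested. Signal near background limits Ccna2, Ccnb1, Kif22, Cenpa, Birc5 and Nusap1, whose brightest tested probes were not well above background on all 7 arrays. It also limits the dimmer probes of Mki67, Cdk1 and Ube2c and the dimmest of Mad2l1.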
